A study of Gallus gallus with 8 samples.

Results

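Cultured presumptive trigeminal ectoderm of the chick that received no FGF2 was set against freshly dissected otic ectoderm, across all genes on the array. These 4 arrays, 2 per group, were chosen by their labels out of the 8 arrays of the series. The trigeminal ectoderm came from embryos at Hamburger and Hamilton (HH) stage 8 and was grown for 18 h in collagen gels in DMEM/F12 with N2 supplements, a defined medium, with no added FGF2. The otic ectoderm came from embryos at HH stage 10 and was never cultured. Both came from embryos of commercially supplied eggs, were freed with the enzyme dispase and were cut out by hand, and about 80 pieces were pooled for the RNA of 1 array, which went through 2 rounds of amplification. The remaining arrays hold trigeminal ectoderm with FGF2 and lateral ectoderm, with 2 arrays each. The former was taken at HH stage 8 and then grown for 18 h with 50 ng/ml FGF2. The latter was dissected fresh at HH stage 10. These arrays entered the shared estimate of the spread, and their values are given beside the comparison where they help to place a gene. Axial level, donor stage and culture differ together between trigeminal and otic ectoderm, so that they cannot be told apart here.

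Placodes are thickened patches of cranial ectoderm that give rise to sense organs and cranial sensory neurons. The otic placode forms beside the hindbrain and makes the inner ear, and its induction depends on fibroblast growth factors (FGFs) from neighbouring tissue, after which transcription factors such as PAX2, GBX2 and SOX8 come on. The trigeminal placode forms further forward and makes sensory neurons of the face, and in the chick its ophthalmic part is marked by PAX3 and FGFR4. The lens, olfactory and adenohypophyseal placodes lie further forward still, where PAX6 and SIX3 are active. All of these placodes arise from a common border region in which their precursors start out mixed.

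Values are the linear intensities of Affymetrix probe sets as the authors deposited them. Array medians were 27.6 and 29.0 in trigeminal ectoderm without FGF2 and 29.3 and 31.7 in otic ectoderm, so that an intensity of about 30 is a typical, dim probe set. Differences are given as log2, trigeminal without FGF2 minus otic, with values under 1 set to 1, and many carry their standard error (SE). A probe set was called higher or lower where the fold difference exceeded 2 and limma's unadjusted p was under 0.05. Pooled ectoderm of this kind cannot tell fewer cells of a type from less RNA per cell. Nothing in the labels says whether the 2 arrays of a group came from separate dissections. SEs and p-values therefore measure only the spread between the 2 arrays within each of the 4 groups. Lateral arrays that differ from one another widen the SE of a gene, even where its trigeminal and otic arrays agree.

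Of 38439 probe sets, 1303 were called higher in trigeminal ectoderm without FGF2 (3.39%) and 1918 were called lower (4.99%), 8.38% in all. These included probe sets of 799 genes that were higher and 1167 that were lower, with 38 genes in both sets through different probe sets. After Benjamini-Hochberg adjustment over all probe sets, limma left 0 probe sets with an adjusted p under 0.05 (smallest 0.0755), against 3422 at an unadjusted p under 0.05. With a prior variance that follows the intensity (limma-trend), 217 passed the adjusted limit, 96 higher and 121 lower. Scaling moved the balance of directions, since 40.5% of calls were higher without scaling between arrays and 51.4% after quantile normalization. Leaving out otic replicate 2 gave 2194 higher and 1695 lower.

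**Figure D1:**
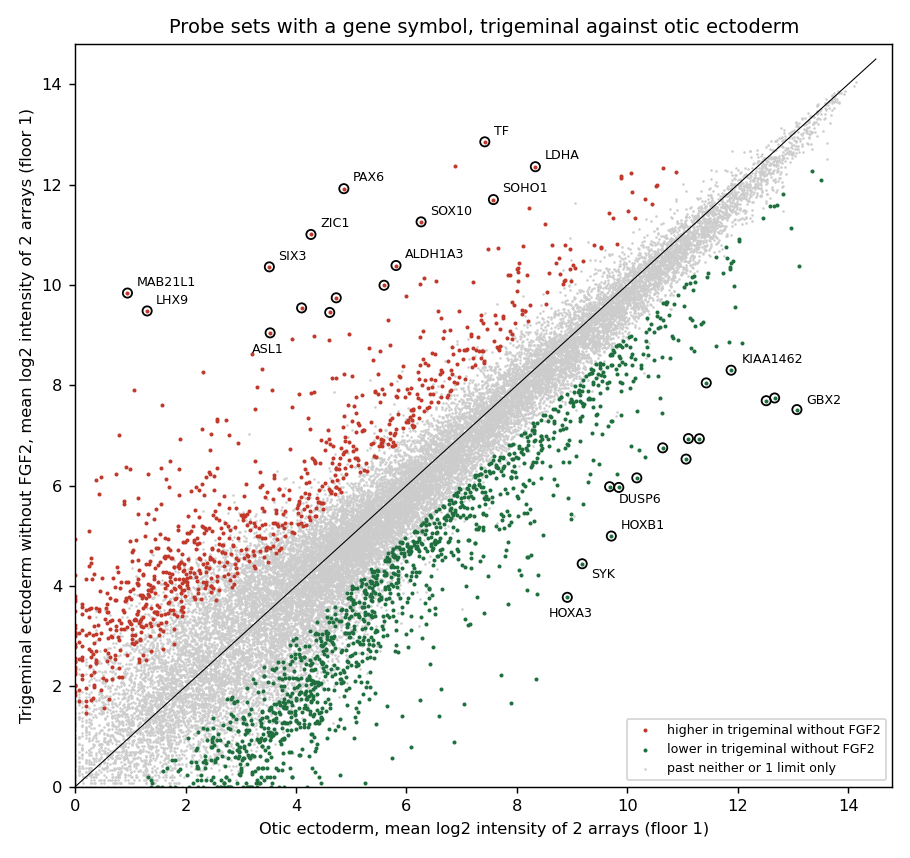
Mean log2 intensity of the 2 arrays of trigeminal ectoderm without FGF2 (vertical axis) against the 2 arrays of otic ectoderm (horizontal axis), 1 point per probe set with a gene symbol. Coloured points passed both limits, circled points are the 15 genes per direction described in the text, part of them named, and the line marks equal values. PAX6 (3588 and 4169 in trigeminal ectoderm, 19.2 and 44.3 in otic ectoderm) and GBX2 (149 and 224 in trigeminal ectoderm, 8360 and 8846 in otic ectoderm) lie on opposite sides.

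Among the genes that stood highest in trigeminal ectoderm, PAX6, the eye and lens master regulator, had intensities of 3588 and 4169 in trigeminal ectoderm without FGF2, against 19.2 and 44.3 in otic ectoderm (log2 difference 7.05 ± 0.63 SE, limma adjusted p = 0.0834). SIX3, a homeobox gene of the anterior forebrain and lens, had 1540 and 1120 in trigeminal ectoderm, against 9.5 and 13.8 in otic ectoderm (6.84 ± 0.47, adjusted p = 0.0755). In otic ectoderm both were near the array median or below it. The LIM homeobox gene LHX9 had 400 and 1278 in trigeminal ectoderm, against 6.1 and 0.7 in otic ectoderm, and MAB21L1, needed for lens and retina development in the mouse, had 1427 and 587 against 3.1 and 1.2. For these last genes the otic values lie at the bottom of the scale. The size of the log2 difference (8.18 ± 1.28 and 8.89 ± 0.73) therefore depends on the floor. It was 4.41 and 4.80 with 32 added to every intensity. Of 4 other probe sets of LHX9, 2 were also called higher.

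Further genes in this set combined regulators and enzymes. SOHO1, a chick homeobox gene of developing sense organs, had 3410 and 3247 in trigeminal ectoderm, against 107 and 340 in otic ectoderm (4.13 ± 0.91). SOX10, which marks neural crest and the otic vesicle, had 1910 and 3131 against 50.5 and 117 (4.99 ± 0.58). ZIC1, a zinc finger factor of the neural plate border, had 1410 and 2994 against 93.1 and 4.0 (6.73 ± 1.78). The otic arrays of ZIC1 and SOHO1 differed from one another several fold. WNT2B, a Wnt ligand, had 503 and 973 in trigeminal ectoderm, against 11.7 and 51.0 in otic ectoderm. ALDH1A3, a retinaldehyde dehydrogenase that makes retinoic acid, had 1184 and 1513 in trigeminal ectoderm, against 56.8 and 55.5 in otic ectoderm (4.58 ± 0.33, adjusted p = 0.0755). Its replicates were closely matched in both tissues.

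Metabolic and secreted products also appeared. LDHA, a subunit of lactate dehydrogenase, had 5672 and 4837 in trigeminal ectoderm, against 244 and 428 in otic ectoderm (4.02 ± 0.41). TF, the iron carrier transferrin, had 8089 and 6744 against 114 and 256 on its brightest probe set (5.43 ± 0.52). The probe sets of TF disagreed, since another with the same symbol had 2482 and 2137 in trigeminal ectoderm and 3357 and 2584 in otic ectoderm. ASL1, the argininosuccinate lyase gene that serves as a delta crystallin in the bird lens, had 973 and 286 in trigeminal ectoderm, against 16.3 and 8.2 in otic ectoderm (5.51 ± 1.00), with a near-identical neighbour, ASL2, whose transcripts the probe set may not separate. BPIFB2, TMEM108 and LOC422872 completed the 15, with trigeminal intensities of 495 to 1267 and otic intensities of 11.2 to 125.

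Among the genes that stood lowest, GBX2, a homeobox gene of the otic placode and anterior hindbrain, had 149 and 224 in trigeminal ectoderm, against 8360 and 8846 in otic ectoderm, a difference of -5.56 ± 0.39 (adjusted p = 0.0755). FOXC2, a forkhead factor of head mesenchyme and paraxial mesoderm, had 247 and 187 against 5899 and 7165 (-4.92 ± 0.57). Lateral ectoderm had 332 and 1022 for FOXC2, far under otic ectoderm. HS3ST3B1, a heparan sulfate sulfotransferase, had 183 and 234 in trigeminal ectoderm, against 5172 and 6619 in otic ectoderm (-4.82 ± 1.32). Its SE takes in lateral arrays at 32.6 and 748. HOXB1, the Hox gene of the fourth rhombomere, had 49.4 and 20.6 against 530 and 1322 (-4.71 ± 0.62). HOXA3, which is expressed from further back, had 55.1 and 3.4 against 237 and 978 (-5.14 ± 1.37). Of 4 other HOXB1 probe sets only 1 was also called lower, and the other probe set of HOXA3 was not called.

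DUSP6, the phosphatase that FGF signalling induces and that switches off ERK, had 51.8 and 76.8 in trigeminal ectoderm, against 573 and 1171 in otic ectoderm (-3.70 ± 0.53). DHRS3, a retinal reductase that is itself induced by retinoic acid, had 138 and 84.2 against 1387 and 1835 (-3.89 ± 0.45). NEDD9, a scaffold protein of focal adhesions, had 84.2 and 46.3 against 715 and 1183 (-3.88 ± 0.54). All 3 were low in both trigeminal arrays. In contrast, GATA5, a zinc finger factor of heart and endoderm, had 507 and 29.5 in trigeminal ectoderm, against 1490 and 4285 in otic ectoderm (-4.37 ± 1.27), so that the trigeminal arrays differed from one another by more than the otic arrays did. SLC16A12, ASTL, KIAA1462 (an endothelial junction protein), SYK, LMO2 (a blood and endothelial factor) and HAPLN1 (a hyaluronan link protein) completed the 15. They had trigeminal intensities of 7.7 to 700, otic intensities of 498 to 4417 and lateral intensities of 407 to 4754. Lateral ectoderm also had 2247 and 2108 for GATA5, 488 and 692 for HOXB1 and 1202 and 497 for HOXA3. High values of these genes were therefore not particular to otic ectoderm. Both lateral arrays were under both otic arrays for GBX2, FOXC2, HS3ST3B1, DHRS3, NEDD9, DUSP6 and, narrowly, SYK. GATA5 and SYK each had 1 other probe set, which was not called. Of 2 other probe sets of SLC16A12, 1 was called lower. Of the 30 genes, 28 kept their call under every alternative, and GATA5 and HOXA3 lost it without otic replicate 2, where the differences were -3.61 and -4.12. With limma-trend, 13 of the 15 higher and 11 of the 15 lower genes had an adjusted p under 0.05. The 30 genes were picked from these same arrays as called, bright and most different, so that such counts are no separate support for them.

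**Figure D2:**
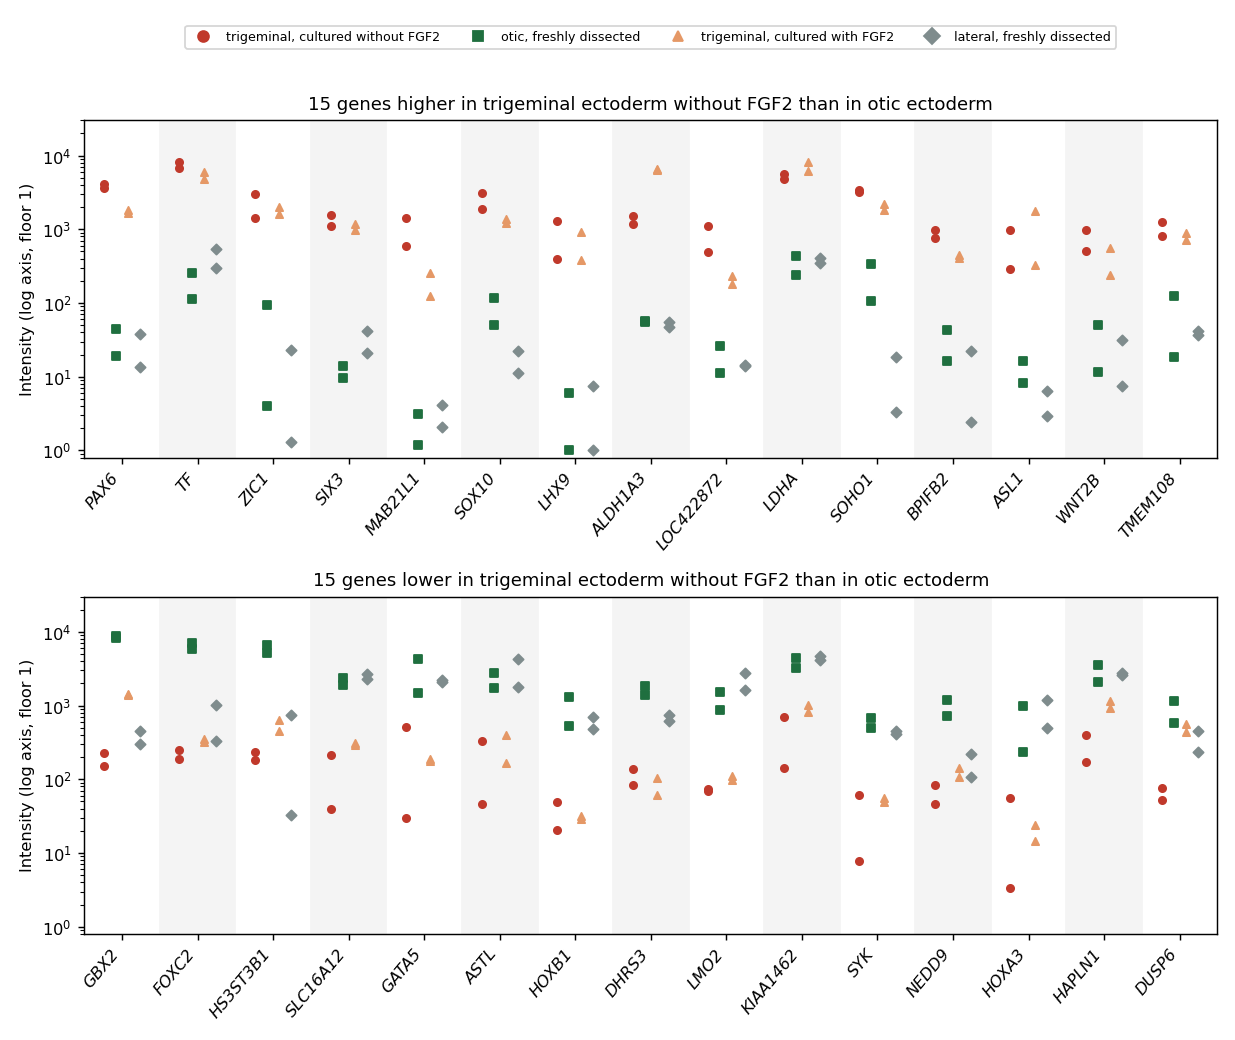
Intensity on a log axis of the 15 genes that were highest and the 15 that were lowest in trigeminal ectoderm without FGF2 relative to otic ectoderm, 1 symbol per array and 2 arrays per group, with values under 1 drawn at 1. Red circles are trigeminal ectoderm without FGF2, green squares otic ectoderm, orange triangles trigeminal ectoderm with FGF2 and grey diamonds lateral ectoderm. GBX2 had 1446 and 1410 in trigeminal ectoderm with FGF2, above the 149 and 224 without it and under the 8360 and 8846 of otic ectoderm.

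The label of the cultured tissue was checked against the trigeminal placode. PAX3, the defining ophthalmic trigeminal gene, had 13.7 and 34.0 in trigeminal ectoderm without FGF2, against 11.1 and 4.6 in otic ectoderm (1.60 ± 0.86, not called), and FGFR4 had 32.3 and 16.7 against 11.4 and 39.5. Both lay around the array median or under it in all 4 arrays. The annotation assigns 1 probe set to FGFR4, while the study states that the array had none for this gene. Its values may therefore not measure FGFR4. These genes gave no measured support to the trigeminal label, and the name is used here as the labels give it. EYA2, a transcriptional coactivator of many placodes, was lower, with 116 and 122 in trigeminal ectoderm against 532 and 600 in otic ectoderm (-2.25 ± 0.38). Of 22 measured genes of the trigeminal placode and sensory neurons, 1 was called higher (4.55%) and 4 lower (18.2%), against 3.62% higher, 4.96% lower and 8.58% in all among 13036 genes with 1 probe set each. The 4 were EYA2, the sensory neuron and head progenitor gene ISL1, and the neuronal differentiation factors EBF1 and EBF3, of which ISL1 lost the call without otic replicate 2 or trigeminal replicate 2. The neurogenic genes NEUROG1, NEUROG2, NEUROD1 and NEUROD4 were dim in both tissues, with no value above 44.3. ELAVL4, an RNA-binding protein of new neurons, was called higher, with 59.4 and 141 in trigeminal ectoderm against 29.8 and 32.2 in otic ectoderm, and lost the call without either otic array or without trigeminal replicate 2.

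Of the defining otic genes, PAX2, GBX2 and GATA3 were called brighter in the tissue labelled otic. SOX8 was brighter there without a call, and SOHO1 ran the opposite way. Other genes of the otic placode were called in both directions. Of 34 otic placode genes, 8 were called lower (23.5%) and 3 higher (8.82%), with a median log2 difference of -0.18 against -0.14 for all genes. PAX2, the early otic regulator, had 42.0 and 14.0 in trigeminal ectoderm, against 137 and 355 in otic ectoderm (-3.18 ± 0.68). GATA3, which the inner ear needs for its outgrowth, had 155 and 110 against 538 and 1041 (-2.51 ± 0.50), and the zinc finger gene SALL1 had 790 and 722 against 3686 and 4194 (-2.38 ± 0.54). With GBX2, the chemokine CXCL14, the hyaluronan synthase HAS2, SALL4 and the ligand FGF3, these made up the 8. SALL4 lost its call without otic replicate 1 or trigeminal replicate 2, and FGF3 without trigeminal replicate 1 and with 32 added.

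The 3 otic genes that were higher in trigeminal ectoderm were SOX10 and SOHO1, given above, and the related homeobox gene HMX1, with 988 and 783 in trigeminal ectoderm against 74.2 and 54.9 in otic ectoderm (3.79 ± 0.40). Lateral ectoderm had only 3.3 and 18.8 for SOHO1, 11.1 and 22.4 for SOX10 and 44.3 and 30.1 for HMX1. Both fresh tissues were far under the cultures for these genes. SOX8 did not pass the p limit, with 149 and 222 in trigeminal ectoderm against 487 and 586 in otic ectoderm (-1.56 ± 1.14). Its lateral arrays, at 3.4 and 49.3, enter that SE. The trigeminal and otic arrays did not overlap, which held with otic higher for 9136 of the 38439 probe sets. DLX5, a homeobox gene of the whole placodal border, was bright in both tissues, with 3050 and 3030 in trigeminal ectoderm and 2410 and 3162 in otic ectoderm. TBX1, an otic and pharyngeal factor, had 32.7 and 54.0 against 101 and 20.0 on the probe set with the higher mean log2 over all 8 arrays, which stands for it in the list, while another probe set was called lower, with 1.5 and 2.3 in trigeminal ectoderm against 64.9 and 207 in otic ectoderm.

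Of 18 genes of the forebrain, midbrain and anterior placodes, 7 were called higher in trigeminal ectoderm (38.9%) and 1 lower (5.56%), with a median of 0.76. Besides PAX6 and SIX3, EN1, the midbrain-hindbrain homeobox gene, had 104 and 253 in trigeminal ectoderm, against 29.0 and 11.9 in otic ectoderm (3.13 ± 0.72), and NPY, the neuropeptide Y precursor, had 60.8 and 106 against 16.1 and 19.9. The pituitary homeobox gene PITX1 had 293 and 181 against 38.5 and 114 and lost its call without otic replicate 1 or trigeminal replicate 1. SIX6 and WNT1 were called on trigeminal values under 30 and lost their calls with 32 added. OTX2, which marks forebrain and midbrain levels, was not called, with 1106 and 3025 in trigeminal ectoderm and 1575 and 1336 in otic ectoderm. Lateral ectoderm had 65.3 and 271 for OTX2, under both tissues. HESX1, an anterior pituitary and forebrain factor, was lower, with 28.9 and 31.6 in trigeminal ectoderm against 73.8 and 113 in otic ectoderm, a call lost with 32 added.

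At the posterior end, 3 of 18 Hox and hindbrain genes were called lower (16.7%) and 0 higher, with a median of -0.82. HOXB1 and HOXA3 were the bright members. HOXB8 was called on values of at most 4.8 and lost the call with 32 added. HOXB3 had 41.5 and 23.3 in trigeminal ectoderm, against 43.7 and 212 in otic ectoderm. In lateral ectoderm it had 419 and 329. HOXB5 was similarly brightest in lateral ectoderm, with 113 and 75.7, against 13.2 and 2.3 in trigeminal ectoderm without FGF2 and 7.1 and 34.8 in otic ectoderm. HOXA2, of the second rhombomere, was near the array median in all 4 arrays on the probe set counted, and another was called lower, with 3.3 and 2.1 in trigeminal ectoderm against 14.6 and 76.5 in otic ectoderm. Leaving out 1 array of the comparison gave 1 to 5 genes of the list lower, with 1 without otic replicate 2 and 5 without otic replicate 1.

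**Figure D3:**
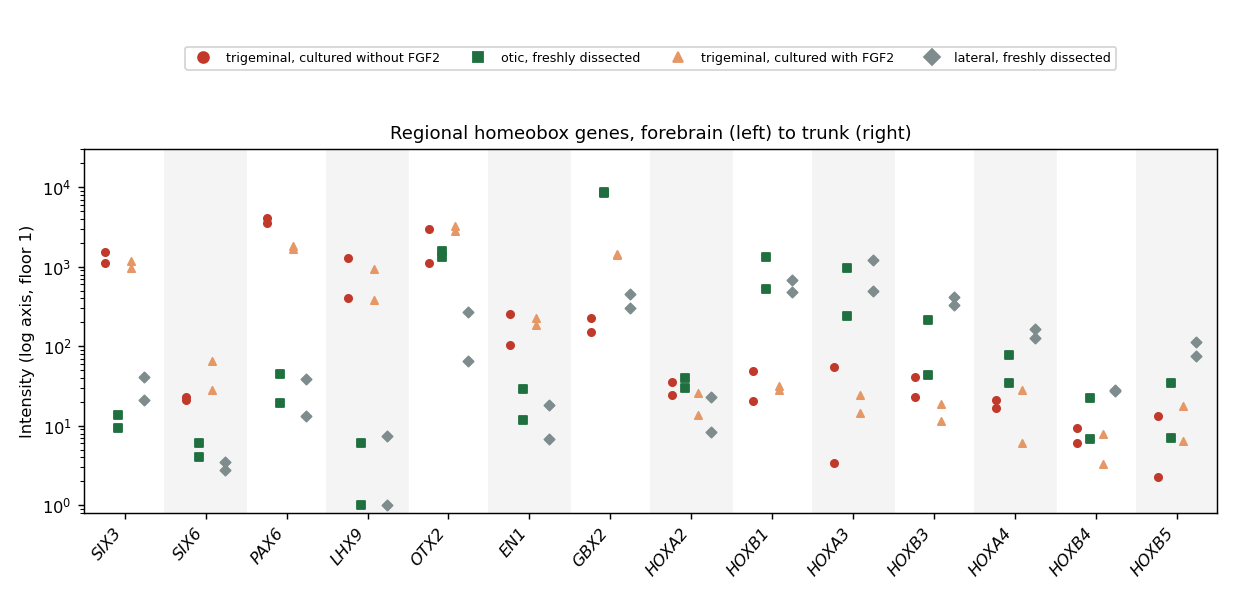
Intensity on a log axis of 14 homeobox genes ordered from forebrain to trunk, 1 symbol per array and 2 arrays per group, with values under 1 drawn at 1. SIX3, PAX6 and LHX9 were bright only in the cultured trigeminal arrays, OTX2 was bright in trigeminal and otic ectoderm, and HOXB1 was at 49.4 and 20.6 in trigeminal ectoderm without FGF2 and at 530 and 1322 in otic ectoderm.

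Of 22 lens genes and crystallins, 4 were called higher (18.2%) and 0 lower, with a median of 0.62. The number higher was 7 with the 4 arrays of the comparison alone and 7 with an offset of 32, and 0 were lower in both. Besides PAX6 and ASL1 these were BFSP2, a beaded filament protein of lens fibres, with 209 and 397 in trigeminal ectoderm against 44.2 and 79.4 in otic ectoderm (2.28 ± 0.50), and the small heat shock protein CRYAB, with 36.7 and 117 against 10.2 and 7.1. The beta crystallin CRYBA4 had 480 and 494 against 119 and 162 and did not pass the p limit (1.81 ± 0.79). The lateral arrays that enter its SE had 5.8 and 33.7. Most other crystallins were dim in both tissues, CRYAA with 5.8 and 15.1 in trigeminal ectoderm and 3.5 and 19.6 in otic ectoderm. FOXE3, the early lens forkhead gene, had 9.9 and 3.4 in trigeminal ectoderm, against 1.3 and 3.2 in otic ectoderm. The summed intensity of the list was 7180 and 9042 in trigeminal ectoderm, against 978 and 1531 in otic ectoderm, and PAX6 supplied the largest part of it in trigeminal ectoderm.

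Of 21 feedback genes of FGF signalling, 9 were called lower in trigeminal ectoderm without FGF2 (42.9%) and 0 higher, with a median of -1.05. The other 12 were not called on the probe set counted, and FLRT3, EGR1 and FOS among them had differences above 0. For ETV5, SPRY3 and IL17RD another probe set was called lower, which made 1 of 5, 1 of 2 and 1 of 3. Of the called genes, ETV1, ETV4 and DUSP5 each had 1 of 2 probe sets called lower, and DUSP4 had 2 of 3. The rest had all of theirs called lower. SPRY2, a Sprouty inhibitor, had 189 and 172 in trigeminal ectoderm, against 883 and 1506 in otic ectoderm (-2.68 ± 0.39). DUSP4, a nuclear MAP kinase phosphatase, had 324 and 369 against 1082 and 904 (-1.52 ± 0.33), and the ETS factor ETV1 had 179 and 255 against 729 and 546 (-1.56 ± 0.38). With DUSP6 and LRIG3, these were the genes of the list that kept their call under every alternative. SPRY1, ETV4, DUSP5 and DUSP14 were also called lower, and each lost the call without otic replicate 2. Trigeminal ectoderm grown with FGF2 had 1102 and 1255 for SPRY2 and 435 and 566 for DUSP6, between the otic values for SPRY2 and under both for DUSP6. It was above both otic values for SPRY1, with 492 and 476 against 197 and 324, and for IL17RD, a membrane inhibitor of FGF signalling that was not called, with 2032 and 2033 against 856 and 1166. The list's count ranged over 6 to 10 lower and 0 to 1 higher when 1 array of the comparison was left out.

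Among 22 FGF ligands and receptors, 4 were called lower (18.2%) and 1 higher (4.55%), against 4.96% and 3.62% of all genes. With an offset of 32 the counts were 2 lower and 0 higher. FGF19, an otic inducer in the chick, had 28.9 and 36.4 in trigeminal ectoderm, against 350 and 360 in otic ectoderm (-3.45 ± 0.52). FGFRL1, a receptor that lacks the kinase domain, had 125 and 129 against 386 and 349 (-1.53 ± 0.34). FGF3 and FGF10 were lower on intensities under 84, and the single higher gene was FGF2 itself, on intensities of at most 20.8. The receptors FGFR1, FGFR2 and FGFR3 were bright in both tissues and were not called, with 829 to 1408 in trigeminal ectoderm and 950 to 1973 in otic ectoderm.

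Retinoic acid genes moved in both directions. Of 16 genes, 6 were called lower (37.5%) and 3 higher (18.8%), with a median of -0.85. ALDH1A2, the main retinoic acid synthase of the trunk mesoderm, had 139 and 87.1 in trigeminal ectoderm, against 622 and 1863 in otic ectoderm (-3.29 ± 0.58), the opposite direction to ALDH1A3. The retinoic acid hydroxylase CYP26A1 had 60.7 and 41.2 against 621 and 553 (-3.55 ± 0.68). CYP26B1 and CYP26C1, of the same family, were lower with DHRS3 and the dim retinol carrier RBP4. CRABP1, a retinoic acid binding protein of neural crest and hindbrain, was higher, with 168 and 322 in trigeminal ectoderm against 19.0 and 21.0 in otic ectoderm (3.54 ± 0.48), as was the receptor RXRG, with 108 and 133 against 32.5 and 14.9. ALDH1A3 had 6401 and 6598 in trigeminal ectoderm grown with FGF2. CYP26B1 lost its call without otic replicate 2 or trigeminal replicate 1, and CYP26C1 without otic replicate 2 or trigeminal replicate 2.

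**Figure D4:**
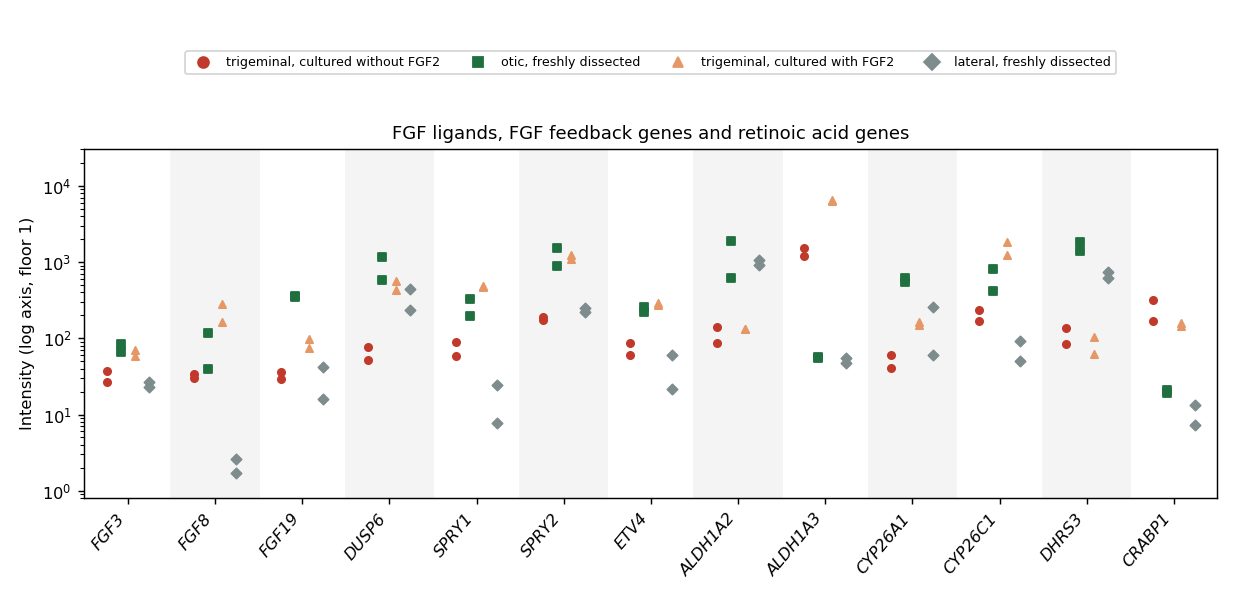
Intensity on a log axis of FGF ligands, FGF feedback genes and retinoic acid genes, 1 symbol per array and 2 arrays per group. DUSP6 was at 51.8 and 76.8 in trigeminal ectoderm without FGF2, under 573 and 1171 in otic ectoderm, and ALDH1A3 was at 1184 and 1513 in trigeminal ectoderm without FGF2, above 56.8 and 55.5 in otic ectoderm.

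Of 41 Wnt genes and targets, 8 were called lower (19.5%) and 4 higher (9.76%), against 4.96% and 3.62% of all genes. The median of the list was -0.05. Leaving out 1 array of the comparison gave 4 to 7 lower and 2 to 5 higher, with 4 lower without otic replicate 2 or trigeminal replicate 1 and 2 higher without trigeminal replicate 2. WNT5A, a ligand of tissue elongation, had 430 and 303 in trigeminal ectoderm, against 1274 and 1608 in otic ectoderm (-1.99 ± 0.36). The receptors FZD7 and FZD8 were also called lower, on 1 of 3 and 1 of 2 probe sets. WNT8B, a forebrain ligand, had 45.8 and 62.8 against 2.0 and 2.4 and was higher with WNT2B, WNT1 and RSPO3, of which WNT1 and RSPO3 lost the call without otic replicate 1 or trigeminal replicate 2. For WNT1 and RSPO3, 1 of 2 and 1 of 3 probe sets were called. Of 34 genes of BMP and activin signalling, 4 were called lower (11.8%) and 0 higher, against 4.96% and 3.62% of all genes. Among the 4 were the ligand BMP5, with 91.2 and 91.4 against 426 and 1038 (-2.87 ± 0.54), and the antagonists FST and CER1. Of 15 Notch genes only the target HES5 was called on the probe set counted (6.67% higher and 0 lower, against 3.62% and 4.96% of all genes). It had 151 and 448 in trigeminal ectoderm against 60.3 and 46.4 in otic ectoderm (2.30 ± 0.61). The ligand JAG1 had 68.6 and 97.9 against 124 and 240 (-1.07 ± 1.14) on the probe set counted. Of its 3 probe sets, 1 was called lower.

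Of 20 neural crest genes, 6 were called higher in trigeminal ectoderm (30%) and 0 lower (3 and 1 without trigeminal replicate 2), with a median of 0.42, and the summed intensity was 12195 and 17923 in trigeminal ectoderm, against 4980 and 6552 in otic ectoderm. Besides SOX10, ZIC1 and CRABP1, the list gained LMO4, WNT1 and PAX7, the last with 42.5 and 139 in trigeminal ectoderm against 18.9 and 5.5 in otic ectoderm. PAX7, LMO4 and WNT1 each lost the call without trigeminal replicate 2. FOXD3, an early crest factor, disagreed between probe sets. The probe set with the higher mean log2 over all 8 arrays had 78.9 and 49.0 in trigeminal ectoderm and 118 and 154 in otic ectoderm and was not called, while the other was called higher, with 90.5 and 289 against 1.8 and 19.4. SNAI2, a crest factor of delamination, had 364 and 557 in trigeminal ectoderm and 189 and 635 in otic ectoderm, which overlap. Of 22 neural tube genes, 5 were called higher (22.7%) and 2 lower (9.09%). Those higher were ZIC1, CRABP1 and PAX7, already counted for the crest, PAX6, also on the forebrain and lens lists, and the Notch target HES5. The crest and neural tube counts therefore share genes. Those lower were NKX6-1 and DBX2, and both lost the call with 32 added. SOX2 was not called, with 1288 and 3003 in trigeminal ectoderm against 346 and 721 in otic ectoderm (1.98 ± 1.24). The lateral arrays had 6.9 and 105 for SOX2 and enter this SE.

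Part of the markers of the other germ layers were called lower in trigeminal ectoderm. Of 23 endothelial and blood genes, 9 were called lower (39.1%) and 0 higher, of 34 genes of mesoderm and head mesenchyme 11 lower (32.4%) and 2 higher, and of 18 endoderm genes 7 lower (38.9%) and 0 higher. Several genes stand on more than 1 of these lists. KDR, the VEGF receptor of endothelial precursors, had 27.7 and 8.2 in trigeminal ectoderm, against 210 and 399 in otic ectoderm (-4.27 ± 0.68), and CDH5, the endothelial cadherin, had 29.2 and 19.4 against 143 and 607 (-3.63 ± 0.72). The red cell gene HBA1 was dim throughout, with 30.8 and 20.0 in trigeminal ectoderm and 18.3 and 20.8 in otic ectoderm. The cardiac factor NKX2-5 had 99.8 and 44.2 against 214 and 460, and the endoderm factor SOX17 had 224 and 41.7 against 470 and 611, a call lost without otic replicate 2. Lateral ectoderm had 1114 and 1273 for CDH5, above all otic and trigeminal arrays.

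The summed intensity of the endothelial and blood list was 2154 and 990 in trigeminal ectoderm, against 4038 and 5721 in otic ectoderm. That of the mesoderm list was 6750 and 4264 against 11716 and 20158, and that of the endoderm list was 2357 and 666 against 4331 and 9997. Within trigeminal ectoderm replicate 1, and within otic ectoderm replicate 2, had the higher sum in each of the 3 lists. None of their members had both arrays of a group at or under the floor, where only 2.3% to 2.64% of all probe sets lay under it. Both trigeminal arrays were under the array median for 13 of 34 mesoderm, 7 of 18 endoderm and 6 of 23 endothelial and blood genes. In otic ectoderm this held for 9, 6 and 6. The part of these cells in GATA5, LMO2, FOXC2, KIAA1462, ALDH1A2 and the other genes that were lower in trigeminal ectoderm was not tested. Without otic replicate 2, the number of members called lower was 1 for endoderm, 5 for mesoderm and 5 for endothelium and blood, and without trigeminal replicate 2 it was 4 for endoderm. The 2 mesenchyme genes that were higher in trigeminal ectoderm were DCN, a small proteoglycan, with 1034 and 1121 against 30.8 and 282 in otic ectoderm, and the dimmer PRRX2, a call lost without otic replicate 1.

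Surface ectoderm was strong in both tissues. Of 30 genes of epidermis and surface ectoderm, 4 were called higher (13.3%, 2 without trigeminal replicate 1) and 1 lower (3.33%), and the summed intensity was 44144 and 28326 in trigeminal ectoderm and 38526 and 50995 in otic ectoderm, which overlap. TP63, the epidermal master regulator, had 242 and 207 in trigeminal ectoderm and 122 and 181 in otic ectoderm and was not called on its brighter probe set (0.60 ± 0.39). TFAP2B, a transcription factor of ectoderm and crest, was higher, with 949 and 1320 in trigeminal ectoderm against 69.8 and 90.9 in otic ectoderm (3.81 ± 0.36), and ANXA2, a membrane-binding annexin, had 5507 and 3828 against 544 and 1658. CDH1, the epithelial cadherin, had 2495 and 1684 in trigeminal ectoderm and 1119 and 2479 in otic ectoderm.

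Genes that might follow culture itself were examined as a group. None of 19 stress and immediate-early genes and none of 19 cholesterol synthesis genes was called in either direction, with medians of -0.10 and -0.09. Of all genes 8.58% were called, a share at which lists this short hold few calls. These counts of 0 therefore say little about culture. Leaving out 1 array of the comparison gave 0 to 2 stress genes higher and 0 to 1 lower. Of 25 glycolysis and hypoxia genes, LDHA, ENO2 and PFKFB3 were higher (12%) and ADM, a hypoxia-induced peptide, was lower (4%). ADM had 218 and 34.3 in trigeminal ectoderm against 642 and 800 in otic ectoderm. ENO2, PFKFB3 and ADM lost the call without otic replicate 2, and LDHA kept it under every alternative. ENO1, the general enolase, was among the brightest genes and did not differ by more than its error, with 14507 and 15156 in trigeminal ectoderm and 13829 and 14956 in otic ectoderm (0.04 ± 0.32). Of 29 cell cycle genes, 2 were higher (6.9%) and 2 lower (6.9%), against 3.62% and 4.96% of all genes, and 0 in either direction without trigeminal replicate 1. The median of the cell cycle list was -0.47, against -0.14 for all genes. The control probe sets for the 3′ end of GAPDH exceeded those for its 5′ end by 1.60 and 1.06 log2 units in trigeminal ectoderm and by 1.92 and 1.69 in otic ectoderm. For actin the excess was 1.42 and 1.20 in trigeminal ectoderm and 1.32 and 1.36 in otic ectoderm, which overlap, and the part of RNA quality in the differences was not tested.

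**Figure D5:**
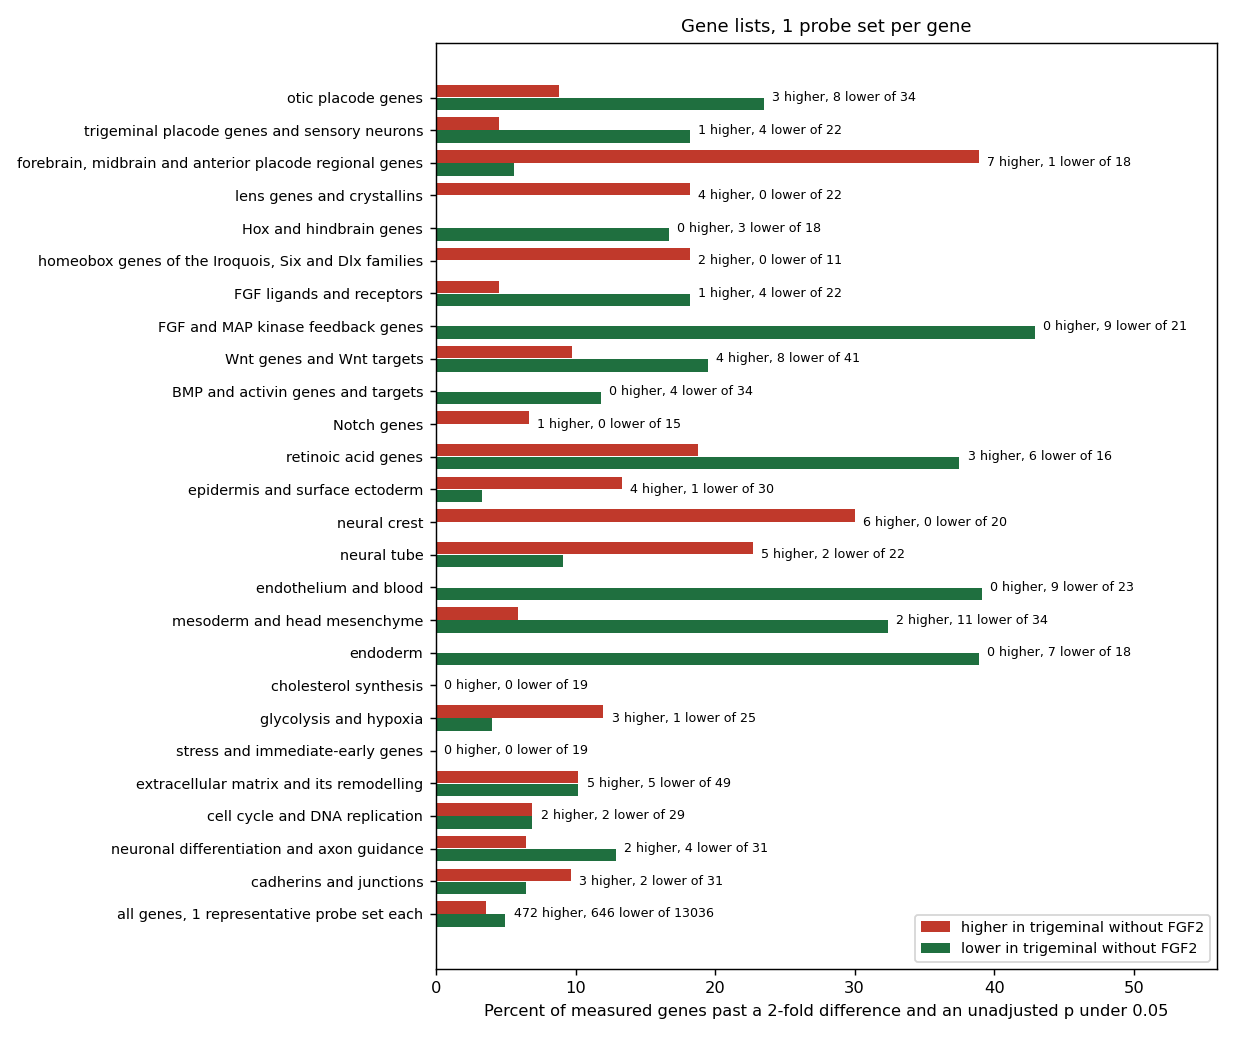
Percent of the measured genes of each list that were called higher (red) or lower (green) in trigeminal ectoderm without FGF2 relative to otic ectoderm, 1 probe set per gene, with the counts beside each pair of bars. The bottom pair shows all 13036 genes, of which 3.62% were higher and 4.96% lower. Feedback genes of FGF signalling (9 of 21) and endothelial and blood genes (9 of 23) had the longest green bars, and anterior regional genes (7 of 18) the longest red bar.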

How the data were processed

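Affymetrix GeneChip Chicken Genome arrays, 2 for each of 4 groups, were grouped by their titles. The deposited intensity values are the authors' summary of each probe set on a linear scale. How probe sets were summarised, background-corrected and scaled is not stated in what was read here, and the submitters' processing notes name limma without a version. Array data give no depth, so that the number of arrays limits the precision.

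Of 38535 probe sets, 96 controls were left out. Of the 38439 tested, 27269 carry 1 gene symbol, 10992 carry none and 178 more than 1. For 102 of them the symbol comes from the study's own tables. Values under 1 were set to 1, log2 was taken with no scaling, and trigeminal without FGF2 was compared with otic ectoderm by lmFit and eBayes (limma 3.58.1, R 4.3.3) in a model of 4 group means fitted to all 8 arrays, with 4 residual degrees of freedom, two-sided, with Benjamini-Hochberg adjustment. The fit was tested on simulated data. Replicate numbers were not used to pair the arrays in the main fit.

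The text names the 15 genes per direction with the largest difference of log2(intensity + 32) among called probe sets with 1 symbol, non-overlapping groups and at least 200 in both arrays of the higher group, called members of 25 gene lists, and a few defining markers. Each listed gene was represented by the probe set with the highest mean log2 over the 8 arrays. Lists received no test, and their counts are to be read against the 3.62% higher and 4.96% lower of all genes. Members and lists were chosen with earlier results of these data known. List members that were not called are given, where they appear, as values only. No sequence or coordinate is printed.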

Additional observations from a re-analysis of the deposited data

How the results depend on the processing

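The counts of probe sets past both limits, 1303 higher and 1918 lower in trigeminal ectoderm without FGF2, depended on how dim probe sets were treated. They were 434 and 573 with an offset of 32, 755 and 1239 with the dimmest 40% left out, 451 and 602 with limma-trend and the offset, and 385 and 432 at a fold over 4 with p under 0.01. Leaving out 1 array gave 1047 to 2194 higher and 1695 to 2044 lower, the extremes without trigeminal replicate 2 (1047 higher) and without otic replicate 2 (2194 higher, 1695 lower). Quantile normalization gave 1633 higher and 1547 lower and median centring 1628 and 1558, so that 51.4% and 51.1% of calls were higher, against 40.5% without scaling, since the median difference of all probe sets was -0.13 without scaling and -0.01 after quantile normalization.

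No probe set had an adjusted p under 0.05 in the unscaled fit, and the count was 3 with quantile normalization, 173 with the offset, 143 without dim probe sets, 217 with limma-trend, 288 with limma-trend and quantile normalization and 208 with limma-trend and the offset. It was 0 with median centring, with the 4 arrays alone (smallest adjusted p 0.348), with the replicate block and without any single array. The combinations with limma-trend were chosen after seeing the data. With the replicate number as a block, 1349 were higher and 1918 lower. The deviations of same-numbered arrays were uncorrelated between trigeminal and otic ectoderm over all probe sets (r = 0.028). This gave no sign that the numbers pair the arrays, but a single deviation per group cannot settle it.

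Of the 30 genes chosen by size, 28 kept their call under all 17 alternatives. Of 110 further called list members 43 did, 3 more kept it under the other 16, since they were among the dim probe sets left out in 1, 64 lost the call under at least 1, and 0 reversed.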

Other observations

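Genes that ranked 16 to 30 by the same measure of size added other kinds of product, and they were chosen after their values were seen. Among those higher in trigeminal ectoderm without FGF2, the cartilage collagen chain COL9A3 had 375 and 685. Otic ectoderm had 23.2 and 17.3 for it (log2 difference 4.66 ± 0.47). PTPRZ1, a receptor phosphatase of neural progenitors, had 212 and 1264 against 18.1 and 54.0 (4.05 ± 0.94). GNRH1, the precursor of gonadotropin-releasing hormone, whose neurons arise in the olfactory placode, had 312 and 327 in trigeminal ectoderm, against 4.7 and 23.3 in otic ectoderm (4.93). The actin-severing protein SCIN had 1052 and 1008 against 70.5 and 81.0 (3.77). RBM3, an RNA-binding protein induced by mild cold, had 1758 and 1592 in trigeminal ectoderm, against 190 and 168 in otic ectoderm (3.23 ± 1.12). TDH, the threonine dehydrogenase, had 3066 and 2879 against 273 and 327 (3.31 ± 0.41).

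Among those lower in trigeminal ectoderm, TNNT2, cardiac troponin T, had 420 and 497, against 2899 and 6482 in otic ectoderm (-3.25). Lateral ectoderm had 7222 and 7039 for it. RGN, the calcium-binding protein regucalcin, had 1561 and 1134 in trigeminal ectoderm, against 9426 and 8196 in otic ectoderm (-2.72). The chemokine CXCL12 had 300 and 731 against 2706 and 4935 (-2.96 ± 0.61). The fibrinogen chain FGB had 444 and 20.2 against 1083 and 1494 (-3.75 ± 1.325). The plasma membrane calcium pump ATP2B1 had 492 and 395 against 4200 and 2319 (-2.82). FGB and TNNT2 are products of liver or yolk sac and of heart, and the part of such cells in these values was not tested.

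Of 31 genes of neuronal differentiation and axon guidance, 2 were called higher (6.45%) and 4 lower (12.9%), against 3.62% and 4.96% of all genes. The ephrin receptor EPHA3 had 544 and 940 in trigeminal ectoderm, against 82.6 and 184 in otic ectoderm (2.54), and the ligand EFNB2 had 318 and 225 against 1108 and 781 (-1.80). NRP1, the neuropilin receptor of semaphorins and VEGF, had 318 and 264 against 918 and 1912 (-2.19). Of 49 extracellular matrix genes, 5 were called higher (10.2%) and 5 lower (10.2%), against 3.62% and 4.96% of all genes, and the number higher was 1 without otic replicate 1, 9 without otic replicate 2, 2 without trigeminal replicate 1 and 3 without trigeminal replicate 2. FN1, fibronectin, had 6132 and 3088 in trigeminal ectoderm, against 12430 and 10922 in otic ectoderm (-1.42), a call lost without otic replicate 1 or trigeminal replicate 2, and PLAU, the urokinase protease, had 441 and 354 against 104 and 81.5 (2.11).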
